A study of Sus scrofa with 18 samples.

Results

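B2M and the swine major histocompatibility genes were followed through 26 probe sets of an Affymetrix 3' expression array, out of 23935 tested, which stand for 13 of 6765 genes with a symbol of their own. These are the probe sets that carry a single symbol in the probe-to-gene table, that symbol being B2M (9 probe sets) or starting with SLA- (17 probe sets of 12 genes). The SLA genes were SLA-2, SLA-3, SLA-6, SLA-7 and SLA-8 of class I (7 probe sets) and SLA-DRA, SLA-DRB1, SLA-DQA1, SLA-DQB1, SLA-DMA, SLA-DMB and SLA-DOA of class II (10 probe sets). The rule reads only the symbols, but the group was selected on measured values, namely the failure minus baseline change of 1 B2M probe set. The comparison of failure with baseline is therefore given as a description, and nothing is supported with it.

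Each array measured right ventricular free wall from 1 of 9 pigs of a mixed breed (Hampshire, Yorkshire and Swedish Landrace), sampled at baseline and again in failure, so that 9 baseline and 9 failure arrays were compared within animals. Failure followed ligation of coronary arteries on that wall. Pigs 6, 8, 9, 11, 12 and 13 carry labels with 120 min of ischemia and are called label set 1. Pigs 5, 10 and 14 form label set 2, whose labels give a weight of 30 to 40 kg and define failure by a right atrial pressure above 20 mmHg. The labels give no ages. Every animal analysed here was ligated, so ischemia and the time between both samples cannot be told apart.

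Values are log2 intensities, in which a step of 1 is a doubling. Over the tested probe sets they ran from 2.08 to 15.17, with array medians from 5.59 to 5.66 and array 25th percentiles from 3.91 to 4.07. The 11 measured cardiomyocyte genes had mean levels from 10.27 to 14.95, all far above the array medians. The 3' minus 5' difference of the GAPDH control probe sets, which grows as RNA is degraded, was 2.61 at baseline and 3.55 in failure in pig 5, against 0.306 to 2.17 on the other arrays. In this bulk tissue, fewer cells of a type and less RNA per cell cannot be told apart.

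Class I molecules show peptides from inside the cell to cytotoxic T cells. They consist of a heavy chain, encoded by SLA class I genes in the pig, and of beta-2-microglobulin, the light chain encoded by B2M, without which most heavy chains do not reach the cell surface. Class II molecules pair an alpha with a beta chain and show peptides from ingested material to helper T cells, mainly on dendritic cells, macrophages and B cells, and in pigs also on some endothelial cells. Classical class I and class II genes are among the most polymorphic genes of vertebrates, and interferon gamma raises both classes. In the RefSeq gene table of assembly Sscrofa11.1 all 13 genes were found under their identifiers with the same symbols. There B2M lies on chromosome 1 and the others on chromosome 7, in the order SLA-2, SLA-3, SLA-8, SLA-7, SLA-6, SLA-DRA, SLA-DRB1, SLA-DQA1, SLA-DQB1, SLA-DMB, SLA-DMA and SLA-DOA. That table holds 2 records with the symbol B2M, and the probe table points all 9 probe sets to 1 of them.

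A single B2M probe set, Ssc.8925.1.S1_at, was lower in failure. Its probe sequences were not at hand, so which RNA it binds was not tested. At baseline it read 14.06 in pig 5, 13.12 in pig 6, 14.37 in pig 8, 13.71 in pig 9, 13.04 in pig 10, 13.58 in pig 11, 12.94 in pig 12, 13.17 in pig 13 and 13.19 in pig 14. In failure the same pigs, in the same order, read 13.43, 11.22, 13.43, 12.14, 11.36, 11.73, 11.67, 11.45 and 13.27. Thus 8 of 9 pigs were lower and pig 14 was not, and the groups overlapped because pigs 5, 8 and 14 in failure still lay in the baseline range. The mean went from 13.46 ± 0.50 to 12.19 ± 0.93 (SD, n = 9), a change of -1.28 (SE 0.17, 95% interval -1.65 to -0.90), or 2.42-fold lower. It was the only one of the 26 members (3.85%) past an adjusted p of 0.05 in limma, against 0.0668% of all tested probe sets in either direction and 0.0460% in that direction. Since this probe set prompted the choice of the group, nothing is read from that share. The call was lost when pig 9, 10, 11, 12 or 13 was left out, at changes from -1.28 to -1.204. The unpaired fit and the unmoderated paired test lost it too.

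The other 8 B2M probe sets did not share this. Their changes ran from -0.23 to 0.17, with a median of -0.05 (SD 0.11 over probe sets), against a median of 0.00034 over all tested probe sets. Ssc.12348.1.S1_at had the highest signal of the 9. Its baseline values were 13.51 in pig 5, 13.01 in pig 6, 12.97 in pig 8, 13.06 in pig 9, 13.85 in pig 10, 13.18 in pig 11, 12.89 in pig 12, 13.19 in pig 13 and 13.34 in pig 14. In failure it read 13.46, 13.02, 13.04, 12.91, 13.76, 12.97, 13.09, 13.12 and 13.16 in the same pigs. The baseline and failure values overlapped almost wholly, and the change was -0.05 (SE 0.06, 95% interval -0.17 to 0.07). This interval does not reach the change of -1.28 at Ssc.8925.1.S1_at. That describes 2 signals, and whether both probe sets bind the same RNA was not tested.

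Among the remaining B2M probe sets, Ssc.5896.1.S1_at stood at 12.49 ± 0.14 at baseline and 12.48 ± 0.11 in failure (SD, n = 9). It also varied least between animals, with an SD of the pig means of 0.07. Ssc.12348.2.S1_at, from the same sequence cluster as Ssc.12348.1.S1_at by its name, had a change of -0.04 (SE 0.06). Ssc.12809.4.S1_a_at (-0.10, SE 0.06), Ssc.17269.1.S1_at (-0.08, SE 0.07) and Ssc.19916.2.S1_a_at (-0.00484, SE 0.07) likewise had intervals that include 0. Ssc.7768.1.A1_at pointed the other way, with a change of 0.17 (SE 0.07) and higher values in 7 of 9 pigs, and did not pass.

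Ssc.12809.5.A1_at was the B2M probe set in which pigs disagreed most. Baseline values in the 9 pigs, in order of their numbers, were 11.81, 11.75, 12.43, 12.41, 12.57, 12.91, 12.05, 12.56 and 10.82, and failure values were 11.004, 12.02, 11.76, 10.44, 12.90, 13.13, 12.47, 12.75 and 10.80. The change was 0.41 in pig 12, 0.34 in pig 10, 0.27 in pig 6, 0.21 in pig 11, 0.20 in pig 13, -0.02 in pig 14, -0.67 in pig 8, -0.80 in pig 5 and -1.97 in pig 9. Lower values in 3 animals therefore carried the mean of -0.23 (SE 0.20), which was -0.00917 without pig 9. This was not the pattern of Ssc.8925.1.S1_at, for which pigs 6 and 11 had the lowest changes (-1.90 and -1.85). The mean absolute difference between these 2 probe sets over the 9 paired changes was 1.199.

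**Figure D1:**
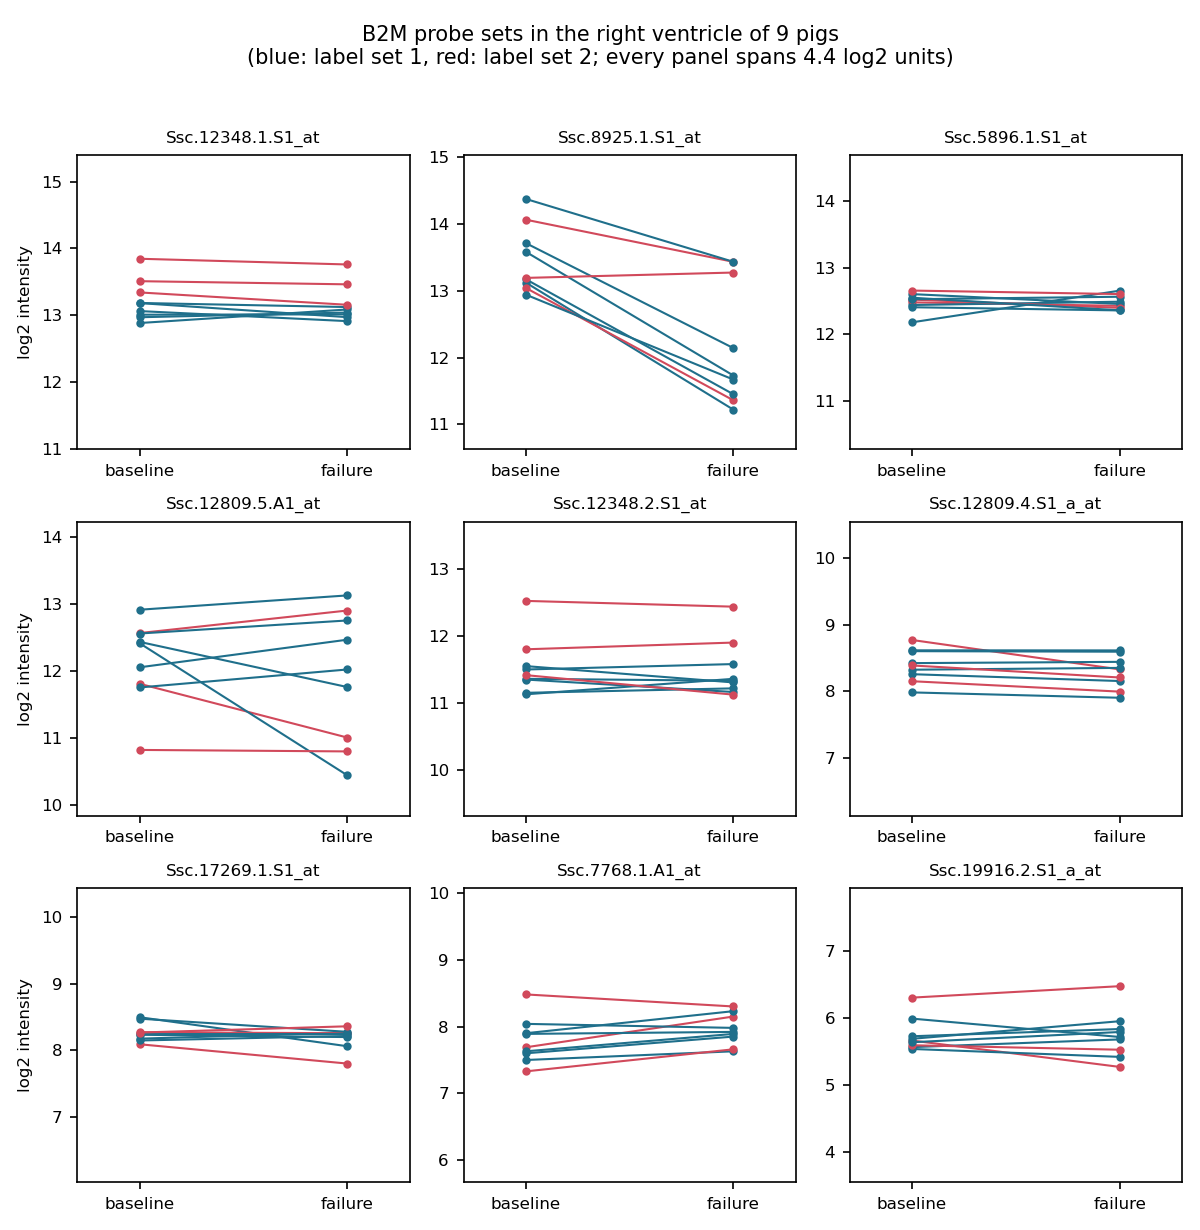
Log2 intensity (vertical axis) of the 9 B2M probe sets at baseline and in failure, with a line for each of 9 pigs, blue for label set 1 and red for label set 2. Ssc.8925.1.S1_at runs down in 8 of 9 pigs with a mean change of -1.28, whereas the other 8 probe sets have mean changes from -0.23 to 0.17.

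Agreement between B2M probe sets was measured as the mean absolute difference of their changes over the 9 pigs. The closest of the 36 pairs was Ssc.12348.1.S1_at with Ssc.12348.2.S1_at, at 0.06. The median pair differed by 0.29. Each pair that included Ssc.8925.1.S1_at differed by 1.196 to 1.45. Levels of different probe sets cannot be set against each other on such arrays, so the mean levels of the 9, from 5.74 to 13.20, are no measure of B2M RNA.

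Among all single-symbol genes, the 5 with paired changes nearest to those of Ssc.8925.1.S1_at were ALAS2, AHSP, OAZ1, HBM and LOC100621559. ALAS2, which starts haem synthesis in erythroid cells, differed from it by 0.38 on average per pig and had a change of -1.27 (SE 0.14). AHSP, which stabilises free alpha globin, differed by 0.43 (change -1.19, SE 0.18). OAZ1, an inhibitor of polyamine synthesis, differed by 0.51 (change -0.79, SE 0.14) and HBM, an alpha-like globin, by 0.69 (change -0.83, SE 0.12). LOC100621559 differed by 0.71 at its probe set Ssc.11075.3.S1_a_at (change -0.73, SE 0.10). In pig 14 the changes were -0.11 for ALAS2, -0.07 for AHSP, -0.03 for OAZ1 and -0.04 for HBM, next to 0.08 for Ssc.8925.1.S1_at. LOC100621559 differed there, with -0.59 in pig 14 and 0.10 in pig 13. The likeness is a description over 9 pigs, it favours genes with falls of like size, and all of these share the same arrays.

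**Figure D2:**
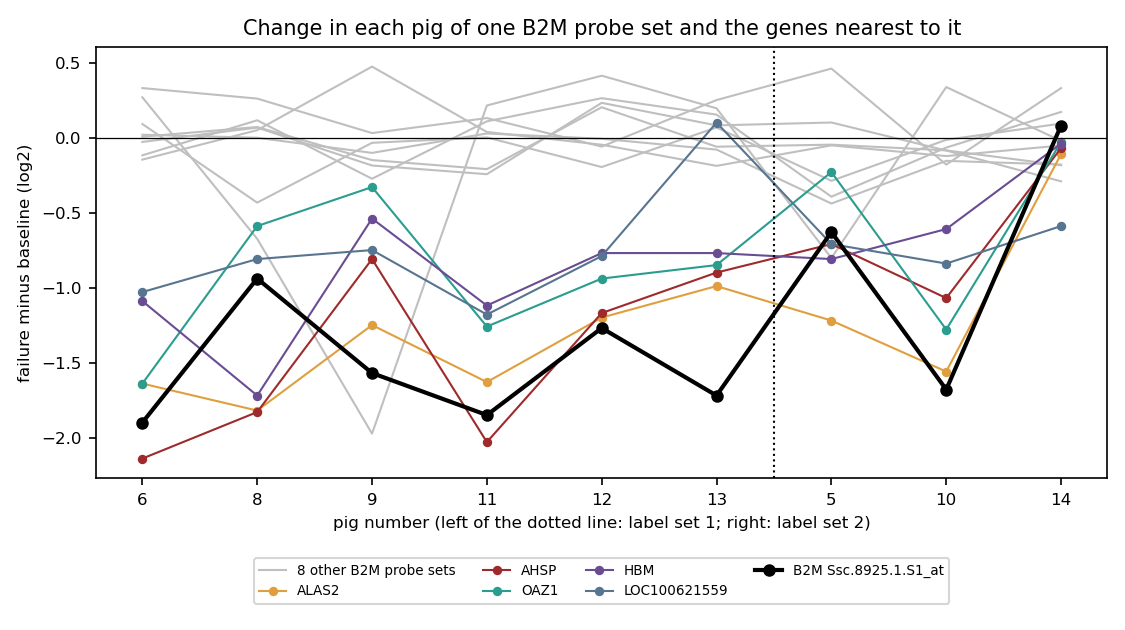
Failure minus baseline (log2, vertical axis) in each of 9 pigs for Ssc.8925.1.S1_at (black), the 5 genes nearest to it and the 8 other B2M probe sets (grey). The black line lies between -1.90 and -0.63 in 8 pigs and at 0.08 in pig 14, where ALAS2, AHSP, OAZ1 and HBM lie between -0.11 and -0.03 and LOC100621559 at -0.59.

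Some red blood cell markers fell with this probe set, and their part in its fall was not tested. Of the 5 measured, ALAS2, AHSP and HBM passed the threshold and were lower (adjusted p of 0.00486, 0.0205 and 0.0208 in limma). At their brightest probe sets, 7 of all 6765 genes passed. All 5 markers had changes below 0 (median -0.83). HBE1 (-0.49, SE 0.09, adjusted p = 0.0975 in limma) did not pass. HBB, with -0.24 (SE 0.10, adjusted p = 0.770 in limma), did not either and was higher in 3 of 9 pigs. The mean log2 level of the 5 ran from 6.60 to 7.88 over the pigs at baseline and from 5.64 to 6.91 in failure. Adjusted for the GAPDH difference, the change of Ssc.8925.1.S1_at was -1.26 and did not pass (adjusted p = 0.0544 in limma).

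Class I heavy chain genes had changes close to 0. Over the 7 probe sets these ran from -0.09 to 0.15 (median -0.06), with 4 below and 3 above 0, and 0 passed in limma (0 also at an unadjusted p under 0.05). SLA-3, a classical class I gene, read 11.39 in pig 5, 10.93 in pig 6, 10.70 in pig 8, 10.66 in pig 9, 11.77 in pig 10, 11.14 in pig 11, 11.44 in pig 12, 10.72 in pig 13 and 11.39 in pig 14 at baseline. In failure it read 11.58, 10.82, 10.76, 10.18, 11.40, 11.12, 11.65, 10.84 and 11.23. Pigs 9, 8 and 13 were lowest at baseline, the groups overlapped, and the change was -0.06 (SE 0.08, 95% interval -0.23 to 0.10).

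SLA-2, the other classical class I gene with a probe set of its own symbol, read 11.51, 10.40, 10.11, 10.47, 11.43, 10.58, 10.17, 10.09 and 11.14 at baseline in pigs 5, 6, 8, 9, 10, 11, 12, 13 and 14. In failure the values were 11.34, 10.68, 10.37, 9.42, 11.24, 10.51, 10.45, 10.09 and 10.99. Pig 9 stood alone with a change of -1.04, the others lying between -0.19 and 0.28. The mean of -0.09 (SE 0.11) was 0.03 without pig 9. In the same pig SLA-3 changed by -0.48 and SLA-8 by -0.53 (Ssc.23510.1.A1_s_at) and -0.34 (Ssc.13780.7.S1_at), the lowest change of each of these probe sets. The GAPDH 3'/5' difference of pig 9 was 0.928 at baseline and 0.485 in failure, and its part in these values was not tested. The SLA-2 probe set has the suffix _x_at, which marks probes that can bind other transcripts, so its signal can hold that of related class I genes.

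The nonclassical class I genes SLA-6, SLA-7 and SLA-8, which are less polymorphic than the classical genes, had changes from -0.09 to 0.15. At Ssc.23510.1.A1_s_at of SLA-8 the signal read 9.83, 9.06, 9.37, 9.54, 9.11, 9.49, 9.003, 9.62 and 8.24 at baseline in pigs 5, 6, 8, 9, 10, 11, 12, 13 and 14, and 9.78, 9.05, 9.25, 9.01, 9.05, 9.33, 9.21, 9.62 and 8.28 in failure. SLA-8 had changes of -0.08 (SE 0.07) at Ssc.23510.1.A1_s_at and 0.03 (SE 0.07) at Ssc.13780.7.S1_at. The SLA-7 signal read 5.91, 5.57, 5.69, 5.92, 6.24, 5.52, 5.18, 5.74 and 6.05 at baseline in pigs 5, 6, 8, 9, 10, 11, 12, 13 and 14, and 6.41, 5.67, 5.68, 5.61, 6.04, 5.09, 5.84, 5.76 and 5.86 in failure. The groups overlapped, with a change of 0.01 (SE 0.10), running from -0.43 in pig 11 to 0.65 in pig 12. SLA-6 gave -0.09 (SE 0.07) at Ssc.13780.3.S1_at and 0.15 (SE 0.07) at Ssc.16308.1.S1_at. The first of these read 8.55, 7.72, 7.90, 7.52, 7.67, 7.89, 7.84, 8.23 and 7.18 at baseline in pigs 5, 6, 8, 9, 10, 11, 12, 13 and 14, and 8.50, 7.85, 7.79, 7.29, 7.48, 7.71, 8.08, 8.21 and 6.77 in failure, and pig 14 was lowest in both. The second had a mean of 4.31, not far above the 25th percentile of the arrays, and its interval of -0.00799 to 0.30 includes 0.

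At most class II probe sets the change lay slightly below 0, without passing. Of 10 probe sets, 8 had changes below 0 (against 49.8% of all tested probe sets) and the median was -0.08. The 10 share the same arrays, and 3 are of SLA-DRB1 and 2 of SLA-DMA, so they are not independent. In limma 0 passed. An unadjusted p under 0.05 was found for 4, against 6.14% of all tested probe sets. Of these SLA-DRA and Ssc.13777.1.S1_at of SLA-DMA were lower in failure, and SLA-DOA and the dim Ssc.16211.1.S1_at of SLA-DRB1 were higher. SLA-DRA, the alpha chain of the DR molecule, read 9.48 in pig 5, 9.12 in pig 6, 9.33 in pig 8, 9.45 in pig 9, 9.64 in pig 10, 9.13 in pig 11, 9.11 in pig 12, 9.27 in pig 13 and 10.04 in pig 14 at baseline. In failure it read 8.96, 9.18, 9.48, 9.34, 9.35, 8.96, 9.12, 8.56 and 9.86. Values were lower in 6 of 9 pigs and the groups overlapped. The change was -0.20 (SE 0.08, 95% interval -0.38 to -0.02, adjusted p = 0.758 in limma). Pigs 13 and 5 had the lowest changes, -0.71 and -0.52. In these pigs the GAPDH 3'/5' difference also rose most from baseline to failure, by 1.18 and 0.94. In pig 12 it rose by 0.55, and SLA-DRA changed by 0.01. The part of RNA quality in the SLA-DRA change was not tested.

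SLA-DQA1, the alpha chain of DQ, had a change of -0.17 (SE 0.08) and went from 9.62 ± 0.31 to 9.45 ± 0.35 (SD, n = 9). Baseline values in the 9 pigs, in order of their numbers, were 9.90, 9.53, 9.92, 9.47, 9.69, 9.39, 9.07, 9.53 and 10.07, and failure values were 9.60, 9.30, 10.17, 9.56, 9.33, 9.26, 9.16, 8.97 and 9.71. Pig 8 was highest in failure and pig 13 lowest. Its partner SLA-DQB1 had a change of -0.04 (SE 0.07), from 9.65 ± 0.31 to 9.61 ± 0.25. SLA-DQB1 read 10.02, 9.48, 9.34, 9.93, 10.13, 9.39, 9.47, 9.37 and 9.70 at baseline in pigs 5, 6, 8, 9, 10, 11, 12, 13 and 14, and 10.02, 9.44, 9.71, 9.67, 9.83, 9.30, 9.68, 9.24 and 9.61 in failure, with pigs 5 and 10 high in both. SLA-DRB1, the beta chain of DR, had a change of -0.12 (SE 0.07) at Ssc.210.1.S1_a_at. This probe set read 9.56, 9.08, 9.19, 8.55, 7.91, 8.94, 8.96, 8.99 and 9.43 at baseline in pigs 5, 6, 8, 9, 10, 11, 12, 13 and 14, and 9.32, 9.02, 9.40, 8.26, 7.64, 8.91, 9.05, 8.94 and 9.01 in failure. Its other 2 probe sets, Ssc.16211.1.A1_at (mean 3.81) and Ssc.16211.1.S1_at (mean 3.05), lay below the 25th percentile of the probe set means (3.98), so their changes of -0.03 and 0.15 say little on the transcript.

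The remaining class II genes act on peptide loading. SLA-DMA and SLA-DMB encode the chains of DM, which exchanges the invariant chain fragment for peptide, and SLA-DOA a chain of DO, which restrains DM. SLA-DMB had a change of -0.11 (SE 0.08). Baseline values in the 9 pigs, in order of their numbers, were 8.42, 7.52, 7.69, 7.73, 8.02, 7.80, 7.52, 7.93 and 8.01, and failure values were 8.12, 7.49, 8.10, 7.38, 7.77, 7.57, 7.64, 7.62 and 7.97. Pig 8 alone had a change above 0.40, and 7 of 9 pigs were lower. SLA-DMA had changes of -0.05 (SE 0.06) at Ssc.13777.2.S1_at and -0.21 (SE 0.08) at Ssc.13777.1.S1_at. The former read 8.21, 8.92, 9.12, 8.90, 8.74, 8.63, 9.03, 9.06 and 8.41 at baseline in pigs 5, 6, 8, 9, 10, 11, 12, 13 and 14, and 7.93, 8.87, 9.004, 8.99, 8.75, 8.76, 8.75, 8.93 and 8.55 in failure, with pig 5 lowest in both. SLA-DOA had the highest change of the 26, 0.19 (SE 0.08, 95% interval 0.02 to 0.36), with values higher in 7 of 9 pigs. It did not pass (adjusted p = 0.760 in limma), and pig 8 with 0.72 and pig 5 with 0.46 led it. SLA-DOA read 5.72, 5.38, 5.91, 5.11, 5.42, 5.34, 5.40, 5.52 and 5.32 at baseline in pigs 5, 6, 8, 9, 10, 11, 12, 13 and 14, and 6.18, 5.64, 6.62, 5.01, 5.42, 5.27, 5.53, 5.59 and 5.54 in failure.

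**Figure D3:**
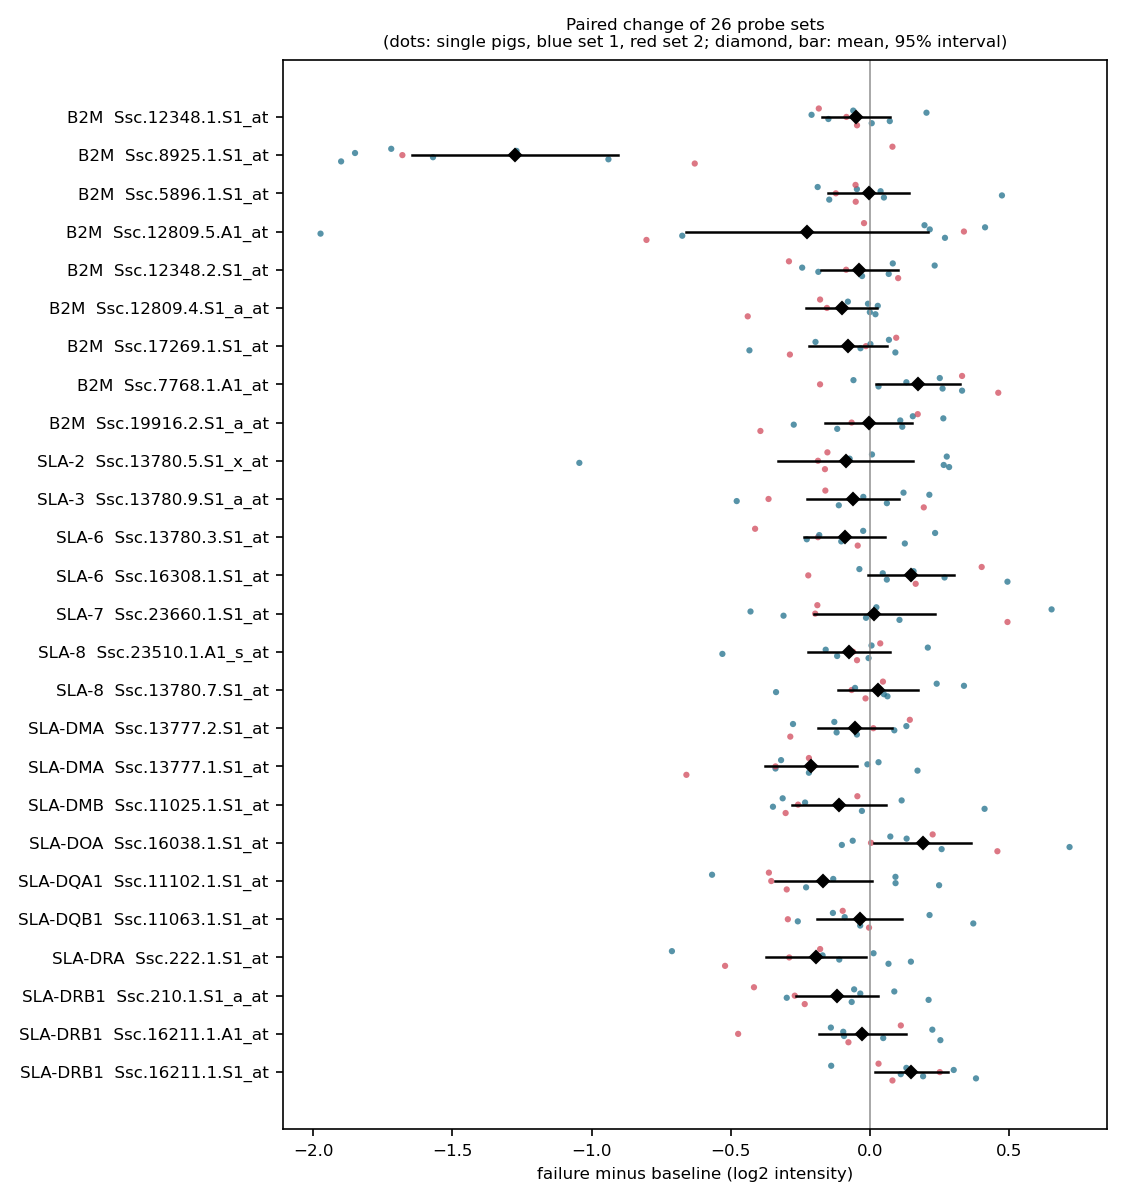
Failure minus baseline (log2, horizontal axis) of the 26 probe sets, with a dot per pig (blue label set 1, red label set 2) and a diamond and bar for the mean and its 95% interval from limma. All means but that of Ssc.8925.1.S1_at lie between -0.23 and 0.19.

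At most of the probe sets, the signal differed between animals by more than between both samples of an animal. Whether it was the RNA level or the sequence under the probes that differed was not tested. A moderated F-test in limma over the 9 pigs, which the choice of the group did not use, passed for 20 of 26 members (76.9%, adjusted p of 0.05) against 37.7% of all tested probe sets. Among probe sets above the median level the shares were 18 of 22 (81.8%) and 56.0%. The median SD of the pig means was 0.29 for the members and 0.18 over all tested probe sets. The residual SD within pigs was alike, at 0.15 for both. The 6 that did not pass were Ssc.5896.1.S1_at and Ssc.17269.1.S1_at of B2M, Ssc.16308.1.S1_at of SLA-6, SLA-7, Ssc.13777.1.S1_at of SLA-DMA and Ssc.16211.1.S1_at of SLA-DRB1.

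Fewer probe sets passed within label set 1 alone, which has fewer animals and no contrast with label set 2. There, 6 of 26 members (23.1%) passed against 8.07% of all tested probe sets. These were Ssc.8925.1.S1_at and Ssc.12809.4.S1_a_at of B2M, SLA-3, Ssc.13780.3.S1_at of SLA-6, SLA-DOA and Ssc.210.1.S1_a_at of SLA-DRB1. Label set, RNA quality and animal overlap here: pig 5 belongs to label set 2 and has the largest GAPDH 3'/5' difference. Without pig 5, 18 of 26 members passed, against 23.6% of all tested probe sets. With that difference as a covariate 19 did, against 23.4%.

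In SLA-2 the label sets did not overlap. The pig means, each over both samples, were 11.43, 11.34 and 11.06 in pigs 5, 10 and 14 and ran from 9.95 to 10.54 in the 6 pigs of label set 1. The same held for Ssc.12348.1.S1_at of B2M, at 13.25 to 13.80 against 12.99 to 13.15, and for SLA-7, at 5.96 to 6.16 against 5.30 to 5.77. In SLA-DMB the margin was negligible (lowest 7.895 against highest 7.893). Thus 4 of 26 members (15.4%) lay wholly higher in label set 2, against 2.74% of all tested probe sets and 1.75% of those above the median level (all 4 are), and 0 lay wholly lower, against 2.72%. This was noticed in the data, and label set and animal cannot be told apart.

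Other members singled out other pigs. Ssc.210.1.S1_a_at of SLA-DRB1 had the largest F of the members (24.9, adjusted p = 4.72e-05 in limma). Its baseline and failure values were 7.91 and 7.64 in pig 10 and ran from 8.26 to 9.56 in the other animals. Thus pig 10, high in SLA-2, was lowest in SLA-DRB1 in both of its samples. The SD of the pig means was 0.51, and the residual SD 0.14.

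SLA-8 and SLA-6 set pig 14 apart. At Ssc.23510.1.A1_s_at of SLA-8, pig 14 read 8.24 at baseline and 8.28 in failure, and the other pigs read from 9.003 to 9.83. At Ssc.13780.7.S1_at it read 7.57 and 7.62, against 8.07 to 9.08. Both SLA-8 probe sets were highest in pig 5, and their centred pig means differed by only 0.13 on average, the closest of the 6 pairs within an SLA gene. Ssc.13780.3.S1_at of SLA-6 likewise was lowest in pig 14 (pig mean 6.98) and highest in pig 5 (8.53), and differed from both SLA-8 probe sets by 0.16. The IDs of this probe set and of Ssc.13780.7.S1_at of SLA-8 share their sequence cluster, and the suffix _s_at of the other SLA-8 probe set marks probes shared between transcripts. The probe sets of SLA-2 and SLA-3 carry that cluster number too, but lay above their means in pig 14, by 0.45 and 0.22. Whether the SLA-6 and SLA-8 probe sets bind each other's transcripts was not tested. The genes are near each other in the RefSeq order, with SLA-7 between them, but SLA-7 (5.96 in pig 14) was not low in that pig.

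Probe sets of 1 gene did not always rank the pigs alike. SLA-DMA was lowest in pig 5 at Ssc.13777.2.S1_at (8.21 at baseline and 7.93 in failure, against 8.41 to 9.12 in the others). In contrast, at Ssc.13777.1.S1_at the baseline value of pig 5, 7.84, was the highest of the 9. The centred pig means of the pair differed by 0.32 on average. For B2M, Ssc.8925.1.S1_at and Ssc.12809.5.A1_at differed by 1.09, more than any other of the 36 pairs. The former was highest in pig 8 (pig mean 13.90) and the latter in pig 11 (13.02).

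**Figure D4:**
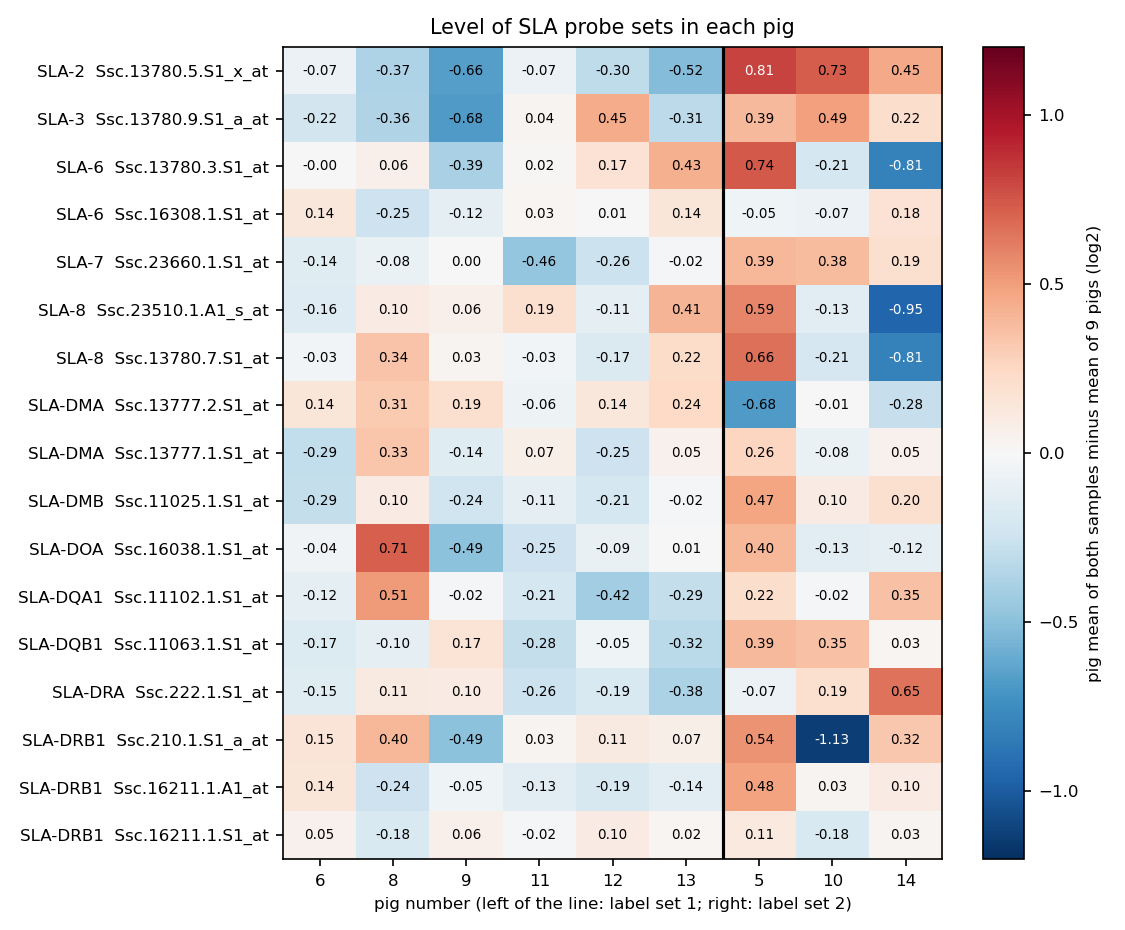
Pig mean of both samples minus the mean of 9 pigs (log2, colour and number) for the 17 SLA probe sets, with label set 1 left of the line and label set 2 right of it. SLA-2 is above its mean only in pigs 5, 10 and 14, SLA-8 is lowest in pig 14 (-0.95 and -0.81) and Ssc.210.1.S1_a_at of SLA-DRB1 in pig 10 (-1.13).

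Another 8 probe sets listed for several genes, at least 1 of them an SLA gene, were outside the rule and are not assigned to a gene here. Their changes ran from -0.32 at Ssc.210.7.S1_x_at to 0.06 and 0 passed in limma. The next lowest change was -0.16 at Ssc.13780.11.A1_at. In the F-test 5 of 8 passed, against 37.7% of all tested probe sets. Ssc.13780.11.S1_x_at showed the widest spread, with pig means from 3.41 in pig 8 to 8.61 in pig 10 and 9.02 in pig 14 (SD 1.997). At baseline and in failure it read 8.57 and 8.65 in pig 10, 8.997 and 9.04 in pig 14, 6.12 and 5.499 in pig 5, and 5.17 and 5.70 in pig 6.

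The response was compared between label sets. For Ssc.8925.1.S1_at the change was -1.54 ± 0.37 (SD, n = 6) in label set 1 and -0.74 ± 0.89 (SD, n = 3) in label set 2. The interaction in limma did not pass (difference 0.80, SE 0.31, adjusted p = 0.867). Pig 14, at 0.08, belongs to the smaller group, while pig 10 of the same group changed by -1.68. None of the 26 members passed this test in limma, nor did any of the 23935 probe sets (0%). At an unadjusted p under 0.05 there was 1 member of 26, against 5.67% of all tested probe sets.

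Genes that act with these molecules are given from lists chosen with earlier results of these data known. For comparison, 7 of all 6765 genes at their brightest probe set passed in limma, so 0 in a short list says little. Changes below 0 were found at 49.8% of all tested probe sets. Of 11 measured genes of class I assembly and peptide supply, 0 rose and 0 fell past the threshold in limma, 9 had changes below 0 and the median was -0.04, against -0.00659 over all 6765 genes at their brightest probe set. PSMB8, a catalytic subunit of the immunoproteasome that cuts peptides for class I, had a change of -0.29, with an SE of 0.06 and an adjusted p of 0.203, and 9 of 9 pigs had lower values. It also differed strongly between animals (adjusted p = 8.24e-08). TAP1, a subunit of the peptide transporter, had a change of -0.25 (SE 0.09, adjusted p = 0.613), lower in 7 of 9 pigs. TAPBP, or tapasin, which bridges heavy chain and transporter, had a change of -0.16 (SE 0.09) and PSME3, a proteasome activator, of -0.13 (SE 0.07).

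Of 7 measured class II pathway genes, 0 passed in either direction (median -0.04). They included CD74, the invariant chain (-0.09, SE 0.13), IFI30, a lysosomal thiol reductase (-0.11, SE 0.12), the protease gene LGMN (0.10, SE 0.08) and CD63 of late endosomes (-0.09, SE 0.07). Of 16 regulators of these genes and of interferon signalling, 0 passed (median -0.02). IFNG itself had a mean level of 3.29 and IFNB1 of 3.28, both below the 25th percentile of the arrays. NFKB1, at 3.75 also dim, had a change of 0.17 (SE 0.10), and the interferon receptor gene IFNAR1 of -0.10 (SE 0.06).

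Among 5 measured class I-like genes and partners 0 passed. CD8A, the coreceptor that binds class I on cytotoxic T cells, changed by -0.49 without passing (SE 0.12, adjusted p = 0.326), and KLRK1, a receptor for class I-like ligands, by -0.36 (SE 0.10, adjusted p = 0.460), each lower in 8 of 9 pigs. TFRC, the transferrin receptor (0.01, SE 0.06), and FCGRT, the neonatal Fc receptor that also pairs with B2M (-0.04, SE 0.08), had changes near 0. The cells that carry most class II in tissue were traced by 11 measured markers of antigen presenting cells, of which 0 passed, 5 were above and 6 below 0 (median -0.03). C1QA (-0.21, SE 0.12), C1QC (-0.20, SE 0.14), CD83 (0.15, SE 0.12) and ITGAM (0.14, SE 0.08) had the largest changes. The mean level of these 11 ran from 6.05 to 6.72 over pigs at baseline and from 6.13 to 6.79 in failure, highest in pig 5. Of 13 lymphocyte markers 0 passed and 10 were below 0 (median -0.07), at mean levels from 3.52 to 5.20, with list means from 4.39 to 4.64 at baseline and from 4.25 to 4.50 in failure. This list also holds CD8A and KLRK1, and after them CD3D (-0.21, SE 0.09) and CD3G (-0.12, SE 0.08), both of the T cell receptor complex, had the largest changes. Markers of endothelium (12 genes, median 0.01) and fibroblasts (7 genes, median 0.05) had 0 past the threshold. The part of these cells in the levels above was not tested.

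Of the 1467 tested probe sets given with at most 2 decimals on all arrays, 1431 (97.5%) had a p under 0.05 in an unmoderated paired test of failure against baseline, and the highest p among them was 0.0564. Of the 22468 given with more decimals, 0 had such a p, and the lowest was 0.05001. The labels do not say why the precision differs, or whether the values with 2 decimals were made in the same way as the others. The change of Ssc.8925.1.S1_at rests on such values. Among the members 4 of 26 had 2 decimals, Ssc.8925.1.S1_at and Ssc.7768.1.A1_at of B2M, Ssc.13777.1.S1_at of SLA-DMA and Ssc.16211.1.S1_at of SLA-DRB1. These were the 4 members with a paired p under 0.05. All 16 probe sets past the threshold in limma, whatever their gene, were given with 2 decimals. So were all 5 genes nearest to Ssc.8925.1.S1_at, and of the 8 other B2M probe sets only Ssc.7768.1.A1_at. Among the list genes, the means and changes of PSMB8, TAP1, CD8A, KLRK1, IFNAR1 and HBE1 fit values with 2 decimals. Those of HBB do not. The changes of these 6 genes therefore carry the same limit. So does the change of -0.32 at Ssc.210.7.S1_x_at, listed for several genes, whose values also have at most 2 decimals.

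**Figure D5:**
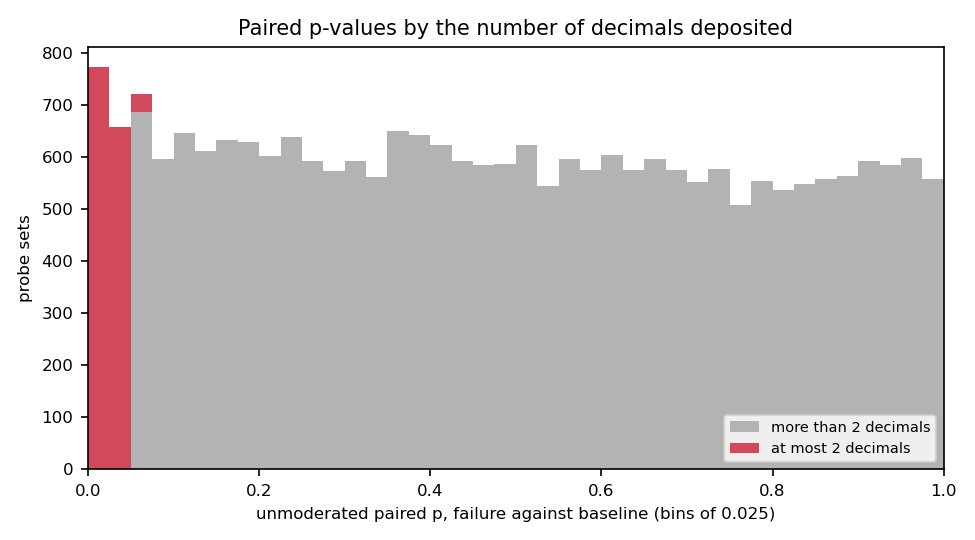
Number of tested probe sets (vertical axis) by their unmoderated paired p (horizontal axis, bins of 0.025), with those deposited with at most 2 decimals in red and the others in grey. The red bars fill the range under 0.05 and reach no further than a p of 0.0564.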

How the data were processed

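Log2 intensities per probe set were used as the authors deposited them. The submitters' processing notes name Partek. How background, scaling and probe set summaries were handled is not given in the sources used here. Per the labels' protocols, labelled cRNA was made with a 3' IVT kit, which primes at the poly(A) tail. The 188 control probe sets were left out. The platform's gene table names 1 gene for 10069 tested probe sets, several for 198 and none for 13668. Failure was compared with baseline in limma 3.58.1 (R 4.3.3) with pig as a block, and p-values were adjusted by Benjamini-Hochberg over 23935 probe sets. The pairing comes from the labels; once group means were removed, both arrays of an animal had an r of 0.449 to 0.750. Differences between pigs were tested by a moderated F-test in the same fit, and label sets by an interaction. The fits were tested on simulated data. Members, lists and tests were chosen with earlier results of these data known. Every member is named; other genes are those past the threshold, those with the 4 largest absolute changes of a list, and the 5 nearest in paired change to a member past the threshold. Alternatives covered the block, moderation, scaling, dim probe sets, a covariate of RNA quality, and subsets of pigs. The number of animals limits the precision.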

Additional observations from a re-analysis of the deposited data

Results flagged for a closer look

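In 6 of 78 sets of 9 values (baseline, failure and change of each member) 1 animal stood far from the other 8, where chance gives about 1 in 20 (3.9). In pig 9 the change was -1.04 for SLA-2, against -0.19 to 0.28 in the others. In the same pig it was -0.53 for Ssc.23510.1.A1_s_at of SLA-8, against -0.16 to 0.21. The change of Ssc.5896.1.S1_at of B2M was 0.47 in pig 9, against -0.19 to 0.05. In pig 5 the change of Ssc.12809.4.S1_a_at of B2M was -0.44, against -0.18 to 0.03. The failure value of Ssc.13777.2.S1_at of SLA-DMA was 7.93 in pig 5, against 8.55 to 9.004. Pig 10 had the highest baseline value of Ssc.12348.2.S1_at of B2M, 12.52, against 11.13 to 11.80. These values are given without an explanation.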

How the results depend on the processing

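The 1 member past the threshold in failure, Ssc.8925.1.S1_at, had changes from -1.54 to -0.74 over 19 alternatives and passed in 9. The count of members was 0 in limma with no replicate block, in the unmoderated paired test, with an intensity trend and robust moderation, with the GAPDH 3'/5' covariate and in label set 2 alone (3 pigs). It ran from 0 to 1 with each pig left out, with an adjusted p from 0.0529 to 0.0596 without pig 9, 10, 11, 12 or 13 and from 0.000652 to 0.0437 without pig 5, 6, 8 or 14. Where it was 0, between 2 and 7 members had an unadjusted p under 0.05. The random block, both scalings and the filter on dim probe sets left it at 1. The count of members whose pigs differ, 20, ran from 17 to 21 with each pig left out and was 6 in label set 1 alone. The interaction stayed at 0 throughout (0 to 4 members at an unadjusted p under 0.05). Of 492 member changes under alternatives, 491 moved by less than the SD of the paired changes over pigs. Most could not move further. Leaving out 1 pig cannot shift a mean that far, and other blocks, other moderation or the filter on dim probe sets leave the change as it is. That count is therefore no measure of stability. Of the 492 changes, 24 changed sign, 0 of them that of the member past the threshold. The number of animals limits what can be seen.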
